A study of Mus musculus with 16 samples.

Results

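Fatty acid oxidation genes and their PPAR regulators were examined in RNA of mouse sperm. The set held 30 genes, chosen by symbol as enzymes of mitochondrial and peroxisomal fatty acid oxidation and the regulators of that pathway, of 24062 gene symbols in the count table. All 30 were in the table, and 29 passed the expression filter. The samples were 16 libraries of motile sperm, 8 from males on a high-fat, high-calorie diet (HFD) and 8 from males on the matching control diet (CD). Males entered either diet at 3 weeks of age and were kept on it for 9 weeks. The wider series concerns obesity in parents and the embryo, and the question put to these libraries is which sperm transcripts differ with paternal diet. Each diet is described as 8 mice, with no strain, allele or other treatment named in the labels. They do not say outright that each library came from 1 animal, so p-values measure the spread between these libraries.

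Fatty acids are burned in mitochondria after the carnitine shuttle has carried them across the inner membrane. Each turn of beta-oxidation then removes an acetyl unit by dehydrogenation, hydration, a second dehydrogenation and thiolysis, and electrons from the first step pass through the electron transfer flavoprotein to the respiratory chain. Peroxisomes run a parallel pathway for very long and branched chains that begins with an acyl-CoA oxidase. PPAR nuclear receptors, with the coactivator PGC-1alpha, switch on many of these genes when fatty acids are plentiful. Spermatozoa are rich in carnitine, which they take up from epididymal fluid, and can use fatty acids for motility.

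Gene counts per library ran from 1882555 to 5153818 in HFD and from 3172721 to 7783981 in CD. Values for single genes are CPM, that is counts scaled to a library of 1000000, adjusted by trimmed mean of M-values (TMM) factors. A count of 0 allows a level of up to 0.397 to 1.79 CPM, depending on the library (3 counts, counting error only). The labelled cell type was checked against 20 late spermatid markers, all of which had counts. They summed to 3097 to 57729 CPM in HFD libraries and 2374 to 13043 CPM in CD libraries. Markers of the epididymal duct summed to more in most libraries, with 9970 to 65216 CPM in HFD and 28569 to 81466 CPM in CD (15 genes, none at 0). Transcripts of both sources were thus present in every library. In such bulk RNA, fewer cells of a type and less RNA per cell cannot be told apart.

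A pair of HFD libraries stood apart. HFD 4 and HFD 8 held 25150 and 57729 CPM of late spermatid markers, above the 2374 to 13043 CPM of the other 14 libraries. Meiotic markers stood at 3601 and 2814 CPM there, and at 191 to 895 CPM elsewhere. Epididymal markers stood at 14042 and 9970 CPM in HFD 4 and HFD 8, below the 28569 to 81466 CPM of the other 14. Both also held the lowest shares of reads in genes, 8.02% and 9.16%, against 10.3% to 20.1% in the other 14, and the highest shares in no annotated feature, 76.1% and 75.0%, against 58.0% to 67.9%. The part of these shares in the results below was not tested. Log2 fold changes of the 29 tested members are given with and without this pair.

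Crat and Acaa2 headed the set once counts were divided by exon length. Crat, carnitine acetyltransferase, which moves acetyl groups between CoA and carnitine, averaged 91.9 ± 92.7 CPM per kilobase of annotated exon in HFD and 45.7 ± 22.2 in CD (SD, n = 8 each). Acaa2, the mitochondrial thiolase that splits off acetyl-CoA, averaged 58.5 ± 67.0 CPM per kilobase in HFD and 87.9 ± 63.3 in CD. The electron transfer flavoprotein subunits Etfa and Etfb followed, with overall means of 39.1 and 25.5 CPM per kilobase. Acox3, a peroxisomal oxidase of branched acyl-CoA, stood at 24.8 and Acadsb, the dehydrogenase of short branched chains, at 22.6 on the same scale. At the other end were Cpt1b at 0.024, Ppara at 1.003, Slc25a20 at 1.46 and Cpt1c at 1.57 CPM per kilobase. With the longest transcript as length the order at the top was Crat at 87.8, Acaa2 at 73.2 and Acox3 at 71.7, so neighbouring ranks depend on which length is taken. They also depend on HFD 4 and HFD 8. Without this pair Crat averaged 42.2 ± 11.96 CPM per kilobase of exon in HFD (n = 6) and 45.7 ± 22.2 in CD, second to Acaa2. By the longest transcript the order over these 14 libraries was Acaa2 at 81.7, Acox3 at 76.8 and Crat at 56.4. Cpt1c averaged 1.03 CPM per kilobase of exon over these 14 libraries, below Ppara at 1.06.

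**Figure D1:**
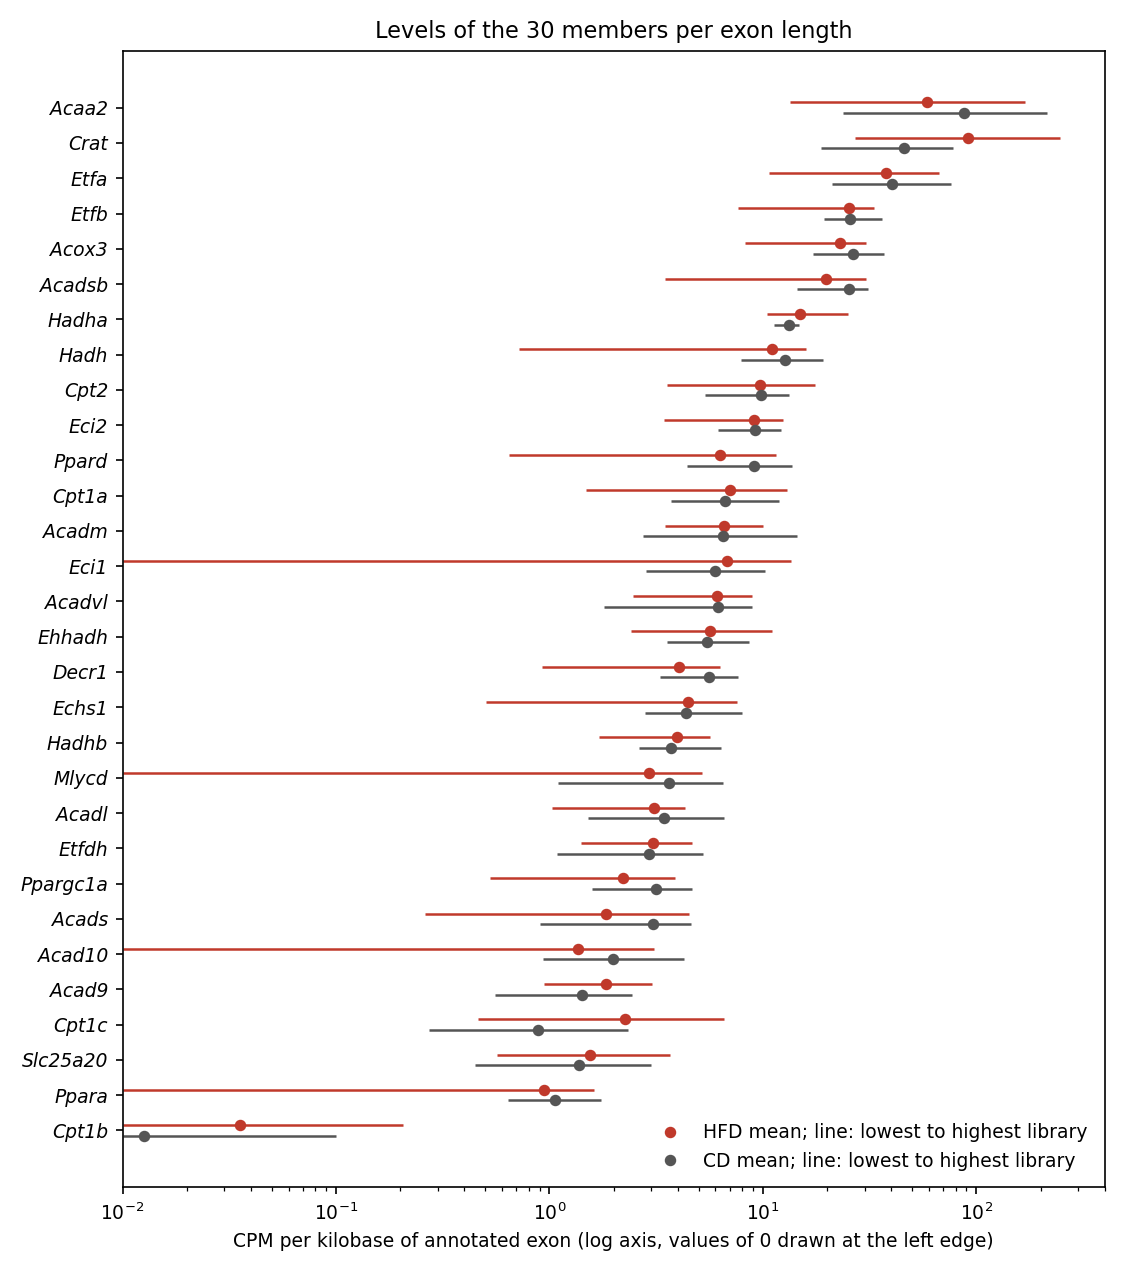
CPM per kilobase of annotated exon for the 30 genes, on a log axis, ordered by the mean over all libraries. Points are diet means (HFD above, CD below) and lines run from the lowest to the highest of 8 libraries. Acaa2 and Crat lead with overall means of 73.2 and 68.8, and the HFD and CD ranges overlap in every gene.

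No gene of the set passed the test for diet. With edgeR's quasi-likelihood test, 0 of the 29 tested genes passed an adjusted p of 0.05, as did 0% of all 13149 genes tested. The smallest adjusted p in the set was 0.434. In all, 11 genes had a positive and 18 a negative log2 fold change of HFD over CD, with a median of -0.01. Over all tested genes the median was -0.0042 and 50.4% lay below 0. Leaving out HFD 4 and HFD 8, the set split into 14 positive and 15 negative. At an unadjusted p under 0.05 stood 1 member, Cpt1c, which was higher in HFD. Of all tested genes 11.3% did so, 10.2% higher and 1.1% lower in HFD. DESeq2 put 2 members, Cpt1c and Crat, at an unadjusted p under 0.05 where 13.8% of all genes were, and limma-voom 1, Acaa2, where 3.8% were. None of the 3 tools called a member after adjustment. Without HFD 4 and HFD 8, 0 of 29 members had an unadjusted p under 0.05, against 2.17% of 13448 genes. The ranges of HFD and CD overlapped in all 30 members, and 0.00761% of tested genes had ranges that did not overlap.

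**Figure D2:**
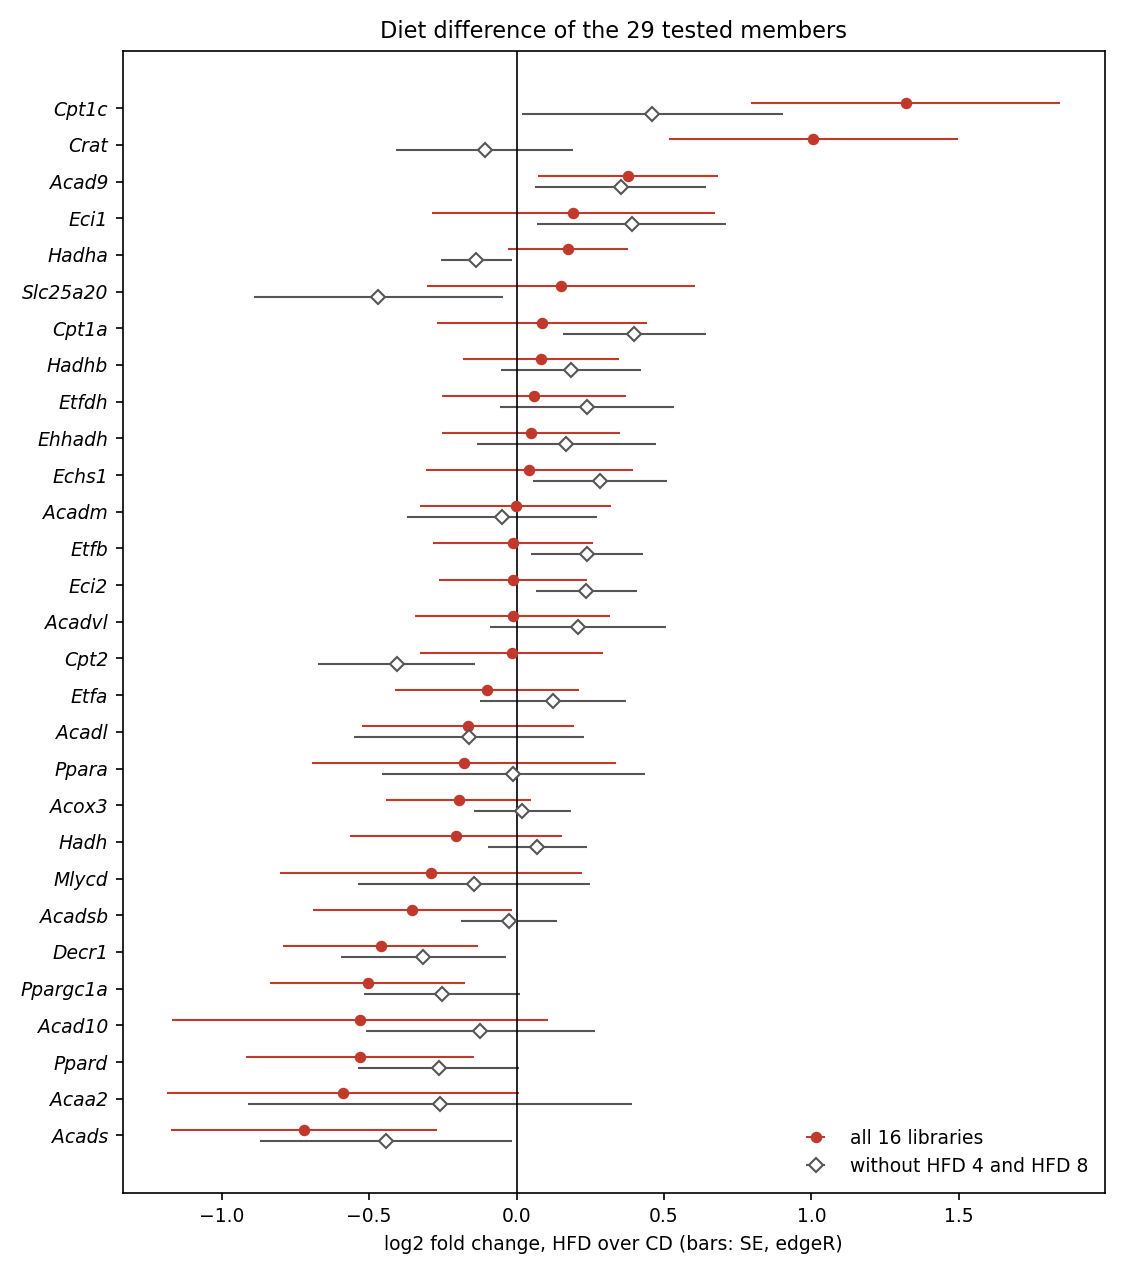
Log2 fold change of HFD over CD for the 29 tested genes, with all 16 libraries (filled) and without HFD 4 and HFD 8 (open), with bars for the standard error from edgeR. Cpt1c and Crat lie farthest to the right with all libraries, at 1.32 and 1.01, and at 0.46 and -0.11 without the pair.

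The carnitine shuttle held the 2 largest log2 fold changes of the set, and in both genes HFD 4 and HFD 8 were the highest libraries. Crat had 146, 247 and 1333 CPM as lowest, median and highest value in HFD, and 101, 235 and 419 CPM in CD. HFD 4 and HFD 8 held 1333 and 1265 CPM, and the other 6 HFD libraries lay within the CD range. The log2 fold change was 1.01 ± 0.49 (SE) with an edgeR adjusted p of 0.451, and -0.11 ± 0.30 without the pair.

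Cpt1c, a carnitine palmitoyltransferase 1 form best known from brain, had 2.59, 8.10 and 36.9 CPM in HFD and 1.53, 4.03 and 13.1 CPM in CD. HFD 4 and HFD 8 were again highest, at 36.9 and 23.4 CPM. Its log2 fold change of 1.32 ± 0.52 (SE) had an unadjusted edgeR p of 0.0211 and an adjusted p of 0.434. Without the pair it was 0.46 ± 0.44.

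Cpt1a, the liver-type enzyme that commits long-chain fatty acids to the mitochondrion, went the other way in the same libraries. It had 11.3, 55.3 and 98.7 CPM in HFD and 28.4, 47.4 and 90.9 CPM in CD, with HFD 4 and HFD 8 lowest at 11.3 and 20.6 CPM. Counts of Cpt1a were 0.306 and 0.881 times those of Cpt1c in HFD 4 and HFD 8, and 3.42 to 37.8 times in the other 14 libraries. This ratio restates the opposite places of both genes in the pair and is no test of them. The diet difference of Cpt1a was 0.09 ± 0.36 on the log2 scale (edgeR adjusted p = 0.944) and 0.40 ± 0.24 without the pair.

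Cpt1b, the muscle-type form, had 4 counts in 3 of the 16 libraries and was not tested. GENCODE M21 places it (chromosome 15, 89416405 to 89425863, minus strand) under another protein-coding gene of the same strand, Gm44502. The count table held no symbol Gm44502. Whether the authors' annotation held that overlap under another name is not given in the sources used here, and its part in the low count was not tested. Markers of striated muscle, where Cpt1b is the main form, summed to 0 to 15.1 CPM in HFD and 2.14 to 12.3 CPM in CD (6 genes, none at 0 in all libraries).

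Among the other shuttle genes, Cpt2, which returns the acyl group to CoA inside the matrix, averaged 23.2 ± 12.1 CPM in HFD and 23.4 ± 6.71 in CD. Slc25a20, the carnitine-acylcarnitine carrier of the inner membrane, averaged 7.51 ± 5.31 and 6.68 ± 3.99 CPM in HFD and CD. Both had their highest HFD values in HFD 8, at 42.2 and 17.8 CPM. Their log2 fold changes were -0.02 ± 0.31 and 0.15 ± 0.45, and -0.41 ± 0.27 and -0.47 ± 0.42 without the pair. Summed over the 6 shuttle genes, levels were 215 to 1434 CPM in HFD and 217 to 499 CPM in CD.

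**Figure D3:**
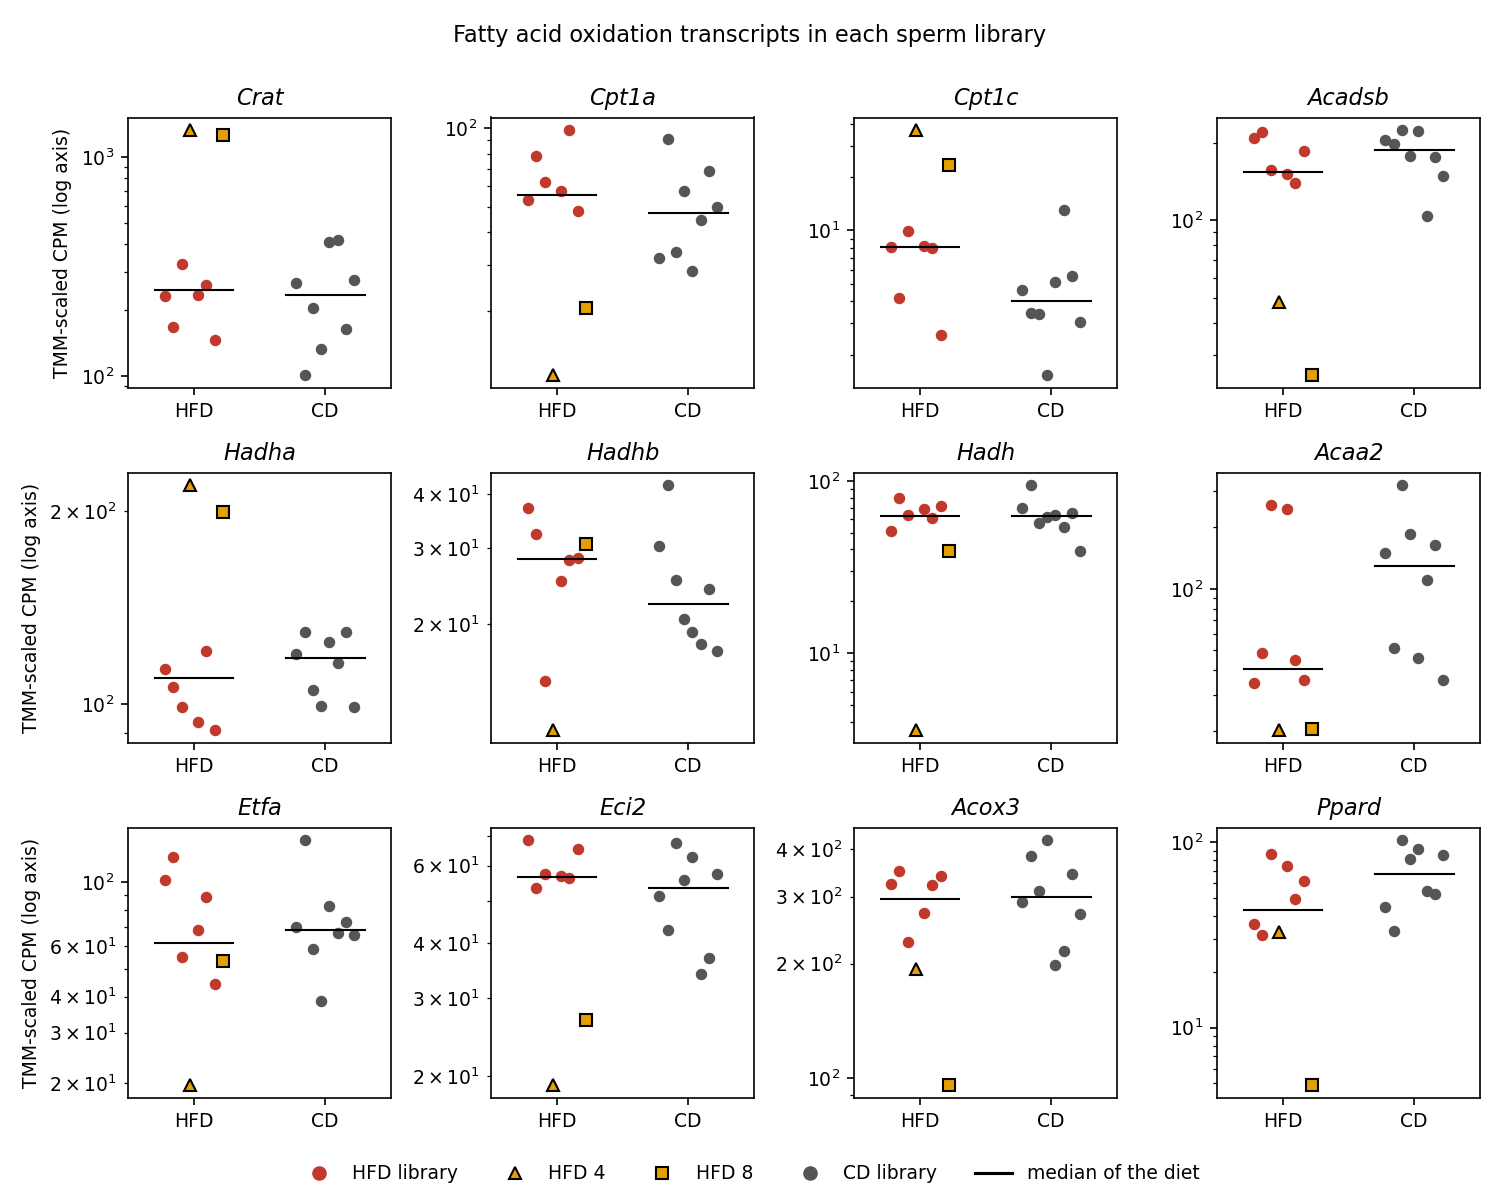
TMM-scaled CPM on log axes for 12 genes, 1 point per library, HFD left and CD right, with a line at the median of each diet. HFD 4 (triangle) and HFD 8 (square) lie above all other libraries in Crat, Cpt1c and Hadha and below them in Cpt1a, Acadsb, Hadh, Acaa2, Eci2 and Acox3.

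The acyl-CoA dehydrogenases, which open each turn of the cycle, had 6 negative and 1 positive fold change over 7 tested genes, with a median of -0.17, and 0 passed. The split without HFD 4 and HFD 8 was 5 negative and 2 positive, with a median of -0.05. Acadsb, the most abundant of them in counts, had 25.1, 154 and 219.5 CPM in HFD and 104, 188 and 224 CPM in CD. HFD 4 and HFD 8 were lowest at 48.2 and 25.1 CPM, and the other 6 HFD libraries held 140.1 to 219.5 CPM, inside the CD range. Its log2 fold change was -0.35 ± 0.34 (SE, edgeR adjusted p = 0.734), and -0.03 ± 0.16 without the pair. Acads, the short-chain enzyme, had the most negative value of the set, at -0.72 ± 0.45 (edgeR adjusted p = 0.573), from 4.16 ± 3.10 CPM in HFD and 6.96 ± 2.87 in CD, and -0.44 ± 0.43 without the pair.

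The enzymes named for chain length had diet means within 1 SD of each other. Acadm, the medium-chain enzyme, averaged 25.6 ± 10.3 CPM in HFD and 25.5 ± 14.2 in CD. Acadl, the long-chain enzyme, averaged 6.18 ± 2.16 and 6.89 ± 3.39 CPM, and Acadvl, the very long-chain enzyme of the inner membrane, 16.4 ± 6.57 and 16.6 ± 6.24 CPM in HFD and CD. Log2 fold changes were -0.0023 ± 0.32 for Acadm, -0.17 ± 0.36 for Acadl and -0.01 ± 0.33 for Acadvl. Without HFD 4 and HFD 8 they were -0.05 ± 0.32, -0.16 ± 0.39 and 0.21 ± 0.30 in that order. Acad9, which also acts in complex I assembly, averaged 15.2 ± 4.82 CPM in HFD and 11.7 ± 5.06 in CD. It had the one positive value of the family over all libraries, 0.38 ± 0.31, and stayed at 0.35 ± 0.29 without the pair. Acad10, a less studied family member, had 0 counts in HFD 4 and in HFD 8, which allows up to 1.79 and 1.05 CPM, against 5.10 to 26.0 CPM in the other 14 libraries. Without the pair its fold change was -0.12 ± 0.39, against -0.53 ± 0.64 with it.

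Both subunits of the mitochondrial trifunctional protein, the membrane enzyme that carries out the last steps on long chains, were measured, and they parted in 1 library. Hadha, the alpha subunit with hydratase and dehydrogenase activity, had 90.9, 109.9 and 219.6 CPM in HFD and 98.7, 118 and 129.6 CPM in CD. HFD 4 and HFD 8 held 219.6 and 199 CPM, above the other 14. Hadhb, the beta subunit with thiolase activity, had 11.3, 28.3 and 37.2 CPM in HFD and 17.2, 22.3 and 42.1 CPM in CD, and HFD 4 was the lowest of all libraries. Counts of Hadha were 19.4 times those of Hadhb in HFD 4, 6.49 times in HFD 8 and 3.05 to 6.72 times in the other 14. The HFD 4 ratio rests on 369 counts of Hadha and 19 of Hadhb. This pair was singled out after its values were seen, so the ratio is a description and no test of it by diet is given. Per kilobase of exon Hadha averaged 14.9 ± 5.73 CPM in HFD and 13.2 ± 1.47 in CD, and Hadhb 3.94 ± 1.33 and 3.73 ± 1.26. Fold changes between diets were 0.17 ± 0.20 for Hadha, which was -0.14 ± 0.12 without the pair, and 0.08 ± 0.26 for Hadhb, which was 0.19 without it. Hadha overlaps Garem2 on the other strand, and the strand setting of the counting is not given in the sources used here.

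**Figure D4:**
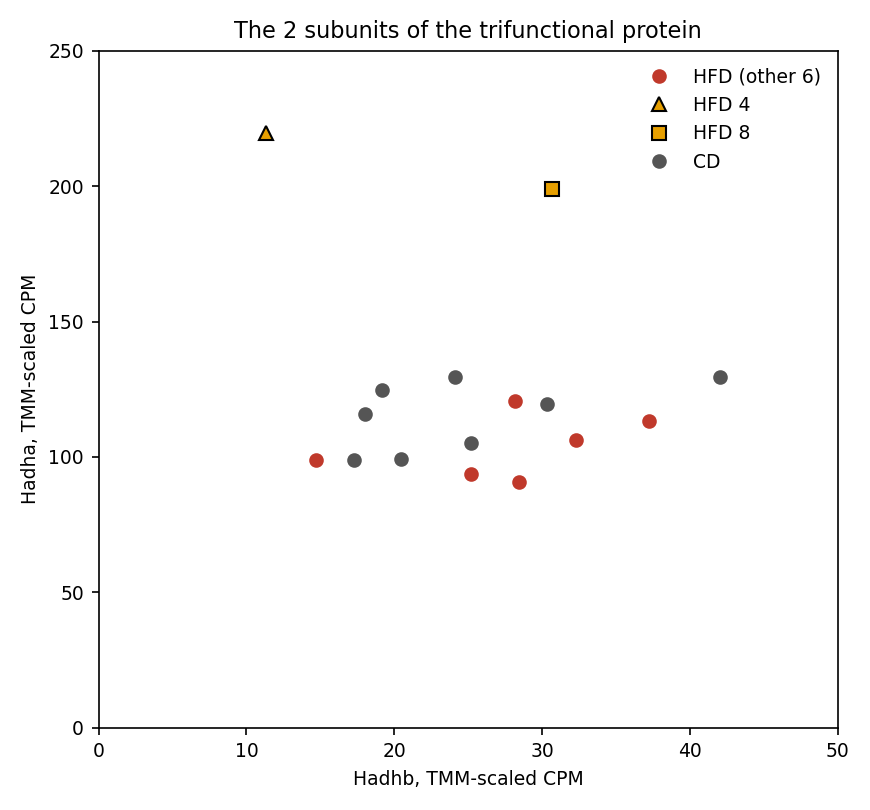
Hadha against Hadhb in TMM-scaled CPM, 1 point per library. HFD 4 combines the highest Hadha value, 219.6 CPM, with the lowest Hadhb value, 11.3 CPM, and the other 6 HFD and the 8 CD libraries hold 90.9 to 129.6 CPM of Hadha.

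Hadha and Hadhb lie head to head on chromosome 5, so the promoter window of Hadhb, which covers most of the sequence between their RefSeq starts, is shown, as are the promoter windows of Cpt1a and Cpt1c, which took opposite places in HFD 4 and HFD 8, and of Acox3, the most abundant peroxisomal gene of the set. RefSeq starts of the pair on GRCm38.p6 are 273 bases apart and GENCODE M21 gene starts 86 bases apart. Each window holds 250 bases before and 50 after the RefSeq start, 5′ to 3′ on the gene's strand. Capitals mark GC boxes (GGGCGG) and nuclear receptor hexamers (AGGTCA) on either strand. Of the 30 genes, 25 had such a window.
Hadhb: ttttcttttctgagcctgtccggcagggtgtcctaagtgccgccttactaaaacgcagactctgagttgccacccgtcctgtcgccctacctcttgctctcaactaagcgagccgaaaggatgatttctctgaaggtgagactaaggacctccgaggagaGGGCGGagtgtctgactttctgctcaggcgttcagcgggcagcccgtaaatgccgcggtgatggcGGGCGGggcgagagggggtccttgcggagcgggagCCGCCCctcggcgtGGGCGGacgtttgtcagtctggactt
Cpt1a: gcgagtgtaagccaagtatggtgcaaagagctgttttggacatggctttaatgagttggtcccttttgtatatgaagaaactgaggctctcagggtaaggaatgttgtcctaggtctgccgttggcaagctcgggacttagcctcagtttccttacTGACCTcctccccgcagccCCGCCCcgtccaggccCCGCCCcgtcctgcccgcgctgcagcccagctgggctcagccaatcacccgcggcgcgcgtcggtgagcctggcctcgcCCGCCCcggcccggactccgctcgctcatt
Cpt1c: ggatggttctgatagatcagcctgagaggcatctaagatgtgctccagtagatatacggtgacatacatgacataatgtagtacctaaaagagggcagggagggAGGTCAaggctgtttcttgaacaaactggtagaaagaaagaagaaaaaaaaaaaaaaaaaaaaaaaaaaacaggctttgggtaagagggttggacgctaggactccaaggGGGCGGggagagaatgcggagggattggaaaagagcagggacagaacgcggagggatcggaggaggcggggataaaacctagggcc
Acox3: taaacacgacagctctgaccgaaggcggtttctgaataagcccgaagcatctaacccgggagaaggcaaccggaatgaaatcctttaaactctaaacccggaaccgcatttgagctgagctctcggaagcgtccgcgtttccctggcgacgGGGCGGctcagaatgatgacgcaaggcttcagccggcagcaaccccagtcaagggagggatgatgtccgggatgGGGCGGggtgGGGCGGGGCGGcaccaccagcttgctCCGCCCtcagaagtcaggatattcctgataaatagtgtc
The windows are chr5:30155003-30155302 on the plus strand for Hadhb, chr19:3323051-3323350 on the plus strand for Cpt1a, chr7:44974802-44975101 on the minus strand for Cpt1c and chr5:35582784-35583083 on the plus strand for Acox3. Hadhb has 4 GC boxes and 0 hexamers, Cpt1a 3 and 1, Cpt1c 1 and 1, and Acox3 5 and 0. Cpt1c also had fewer CG dinucleotides, 8, than Cpt1a and Acox3 with 22 each and Hadhb with 24.

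Over the 25 windows, GC boxes were present in 19 (76%), against 35.7% of 32851 promoters of the same length. The hexamer was present in 5 (20%), namely Acadm, Acadvl, Cpt1a, Cpt1c and Echs1, against 16.3% of all promoters. An exact direct repeat of 2 such hexamers spaced by 1 base of any kind, the type of element PPAR binds, was in 0 of 25 and in 0.0396% of all promoters. At so low a share, 25 windows cannot show whether the set differs from other genes. The estrogen-related receptor element (TCAAGGTCA) was in 0 of 25 and in 0.423% of all. The cAMP response element (TGACGTCA) was in 0 of 25 and in 1.79%. Both strands were searched, and the hexamer is contained in the PPAR and estrogen-related receptor motifs. Only exact matches within the windows were counted, so inexact or more distant sites were not examined. Median GC content of the 25 windows was 61.3%, against 52.7% over all promoters. Whether base composition sets the share with a GC box was not tested.

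Of the remaining matrix enzymes, Hadh, the dehydrogenase of medium and short hydroxyacyl chains, had 3.57, 62.1 and 79.3 CPM in HFD and 39.2, 62.7 and 94.8 CPM in CD. HFD 4 alone lay far below the rest at 3.57 CPM, from 6 counts, and HFD 8 at 39.1 CPM was close to the lowest CD library. The log2 fold change of Hadh was -0.21 ± 0.36 (SE, edgeR adjusted p = 0.852), and 0.07 ± 0.17 without the pair. Echs1, the short-chain hydratase, averaged 37.2 ± 17.8 CPM in HFD and 36.1 ± 13.1 in CD, with 4.17 CPM in HFD 4. Between diets Echs1 had a log2 fold change of 0.04 ± 0.35, and 0.28 ± 0.23 without the pair.

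Acaa2 varied widely within each diet. It had 20.2, 40.3 and 258 CPM in HFD and 35.8, 129.95 and 323.5 CPM in CD. HFD 3 and HFD 5 held 258 and 247 CPM, and the other 6 HFD libraries 20.2 to 48.7 CPM. In CD, libraries 1, 3, 4, 6 and 7 held 109.9 to 323.5 CPM and libraries 2, 5 and 8 held 35.8 to 51.5 CPM. Both diets thus had low and high values, and whether these form separate levels was not tested. The log2 fold change was -0.59 ± 0.60 (SE, edgeR adjusted p = 0.747), -0.26 ± 0.65 without HFD 4 and HFD 8, and -1.07 ± 0.47 with limma-voom and quality weights, whose adjusted p was 0.999.

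Electron transfer genes had diet means within 1 SD of each other. Etfa had 19.6, 61.6 and 122 CPM in HFD and 38.5, 68.2 and 140.5 CPM in CD, with HFD 4 lowest and CD 2 highest. Its log2 fold change was -0.10 ± 0.31 (SE, edgeR adjusted p = 0.919), and 0.12 without HFD 4 and HFD 8. Etfb averaged 29.5 ± 10.9 CPM in HFD and 29.8 ± 7.94 in CD. Etfdh, the membrane oxidoreductase that hands these electrons to ubiquinone, averaged 22.8 ± 9.15 and 21.9 ± 9.12 CPM in HFD and CD. Log2 fold changes were -0.01 ± 0.27 for Etfb and 0.06 ± 0.31 for Etfdh, and 0.24 for both without the pair.

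The auxiliary enzymes prepare unsaturated chains for the cycle. Eci2, an enoyl-CoA isomerase, had 19.04, 56.6 and 68.7 CPM in HFD and 34.1, 53.4 and 67.4 CPM in CD, with HFD 4 and HFD 8 lowest at 19.04 and 26.8 CPM. Its log2 fold change was -0.01 ± 0.25 (SE, edgeR adjusted p = 0.99), and 0.24 without the pair. Eci1, the other mitochondrial isomerase, averaged 14.5 ± 8.24 CPM in HFD and 12.7 ± 5.43 in CD and had 0 counts in HFD 4. Eci1 had a log2 fold change of 0.19 ± 0.48, and 0.39 ± 0.32 without the pair. Decr1, the dienoyl-CoA reductase, averaged 15.7 ± 7.24 CPM in HFD and 21.8 ± 6.95 in CD. On the log2 scale the fold change was -0.46 ± 0.33 (edgeR adjusted p = 0.638), and -0.32 ± 0.28 without the pair.

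In the peroxisome, Acox3 had 95.5, 296 and 349.97 CPM in HFD and 198, 300.1 and 424 CPM in CD. HFD 8 was lowest at 95.5 CPM and HFD 4 next at 194 CPM, just under the lowest CD value. The log2 fold change was -0.20 ± 0.24 (SE, edgeR adjusted p = 0.789), and 0.02 ± 0.16 without the pair. Acox3 overlaps the antisense gene 4931431C16Rik, which had 1584 counts in all against 17801 for Acox3. Ehhadh, the peroxisomal bifunctional enzyme, averaged 16.8 ± 7.68 CPM in HFD and 16.3 ± 5.99 in CD. Between diets Ehhadh had a log2 fold change of 0.05 ± 0.30, and 0.17 without the pair.

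All 4 regulators had negative fold changes, with a median of -0.40, and -0.20 without HFD 4 and HFD 8, and 0 of the 4 passed. Ppard, the PPAR form found in most tissues, had 4.88, 42.8 and 86.2 CPM in HFD and 33.1, 67.6 and 103 CPM in CD, with HFD 8 lowest of all libraries. Its log2 fold change was -0.53 ± 0.39 (SE, edgeR adjusted p = 0.643), and -0.26 ± 0.27 without the pair. Ppargc1a, which encodes PGC-1alpha, averaged 14.6 ± 6.52 CPM in HFD and 20.8 ± 7.42 in CD. Its diet difference was -0.51 ± 0.33 on the log2 scale (edgeR adjusted p = 0.599), and -0.25 ± 0.27 without the pair, which held the lowest values, 9.52 CPM in HFD 4 and 3.49 CPM in HFD 8.

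Ppara, the receptor that leads the fasting response of liver, averaged 3.61 ± 2.30 CPM in HFD and 4.09 ± 1.49 in CD, with 0 counts in HFD 8. Mlycd, the decarboxylase that removes the CPT1 inhibitor malonyl-CoA, averaged 8.69 ± 5.22 CPM in HFD and 10.7 ± 4.92 in CD, with 0 counts in HFD 4. Log2 fold changes were -0.18 ± 0.52 for Ppara and -0.29 ± 0.51 for Mlycd. Without HFD 4 and HFD 8 they were -0.01 ± 0.45 and -0.14 ± 0.39. Summed over the 4 regulators, levels were 20.2 to 115 CPM in HFD and 69.4 to 147 CPM in CD, and HFD 8 and HFD 4 were the lowest at 20.2 and 47.0 CPM.

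HFD 4 and HFD 8 held many of the extreme values. Both lay above the other 14 libraries in 4 of the 29 tested genes (Crat, Cpt1c, Cpt2 and Hadha), where 21.8% of all tested genes did so. Both lay below the other 14 in 9 (Acaa2, Acad10, Acadsb, Acox3, Cpt1a, Eci2, Etfb, Hadh and Ppargc1a), where 22.6% of all tested genes did so. The set's shares of 13.8% and 31.0% are to be read against these backgrounds, and no test was made of the difference. With counts scaled to the gene total the same comparison gave 3 genes above, without Cpt2, and 10 below, with Acads and Ppard added and Hadh left out. Summed, the 29 genes other than Crat held 789 and 787 CPM in HFD 4 and HFD 8, against 1083 to 1616 CPM in the other 14 libraries. With Crat the 30 genes held 2122 and 2051.5 CPM in the pair, against 1385 to 1727 CPM. In the late spermatid and epididymal marker sums given above, HFD 4 and HFD 8 also lay outside the other 14 libraries. Whether marker sums and gene values move together across libraries was not tested. A fit of diet with the ratio of these sums as covariate is given below, and their part was not tested further.

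Marker sums of other cells overlapped between the diets, and HFD 4 and HFD 8 stood outside the other 14 libraries in several of them. In this pair stromal markers summed to 1479.5 and 1223 CPM, against 349 to 1005 CPM in the other 14, and liver markers to 8.93 and 10.1 CPM, against 0 to 7.95 CPM. Leukocyte markers summed to 1513 and 1936 CPM in the pair, against 2052 to 5420 CPM elsewhere, and Sertoli cell markers to 11.9 and 10.8 CPM, against 22.4 to 67.5 CPM. Leukocyte markers summed to 1513 to 5420 CPM in HFD and 2052 to 4522 CPM in CD, and stromal markers to 419 to 1479.5 CPM in HFD and 349 to 1005 CPM in CD. Adipocyte markers, which would mark adhering fat, summed to 18.5 to 41.8 CPM in HFD and 14.4 to 43.4 CPM in CD. Liver markers stood at 1.03 to 10.1 CPM in HFD and 0 to 7.95 CPM in CD, Sertoli cell markers at 10.8 to 54.3 and 22.4 to 67.5 CPM, with Amh at 0 in every library, and Leydig cell markers at 20.8 to 123 and 39.1 to 112.5 CPM. The part of these cells in the values of the set was not tested.

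A further 63 genes of fatty acid uptake, activation, carnitine supply, peroxisomal oxidation and ketone formation were read from the same fit. Of 52 that were tested, 0 passed in either direction. Log2 fold changes were positive in 17 and negative in 35, where 50.4% of all tested genes were negative, and the median was -0.12. Without HFD 4 and HFD 8 the split was 30 positive to 23 negative over 53 genes, with a median of 0.01. The 5 most abundant in counts were Acsl1, Acsl4, Scp2, Ucp2 and Abcd3. Acsl1, which activates long-chain fatty acids to acyl-CoA, averaged 829 CPM in HFD and 712 in CD, with 1248 CPM in HFD 4, 1441 CPM in HFD 8 and 580 to 950 CPM in the other 14 libraries. Acsl4, which prefers arachidonic acid, averaged 253 CPM in HFD and 302 in CD, with 77.4 and 75.7 CPM in that pair and 185 to 435 CPM elsewhere. Scp2, a peroxisomal thiolase and sterol carrier, averaged 137 and 153 CPM, Ucp2, an inner membrane uncoupling family protein, 129.6 and 148 CPM, and Abcd3, a peroxisomal transporter, 125 and 132 CPM in HFD and CD. At an unadjusted edgeR p under 0.05 stood 2 of the 52, where 11.3% of all tested genes did, 10.2% higher in HFD. They were Tfam, the packaging factor of mitochondrial DNA, at 1.46 ± 0.60 (SE, adjusted p = 0.434), and the peroxisomal thioesterase gene Acot8 at 1.24 ± 0.59 (adjusted p = 0.443). Without HFD 4 and HFD 8 these fold changes were 0.01 for both. With a single library left out they fell as low as 0.16 for Tfam and 0.14 for Acot8. Acot8 held 54.2 CPM in HFD 4 and 7.32 CPM in HFD 8, against 1.70 to 7.19 CPM in the other 14 libraries.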

How the data were processed

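Raw read counts per gene symbol, deposited by the authors with no normalisation, were read for 16 libraries. Per the labels' protocols, 2 ng of DNase-treated RNA was amplified to cDNA and 250 ng of cDNA made each library. No molecular identifiers are named, so amplified copies count as reads. Tools listed in the submitters' processing notes, without role or order, are STAR, HTSeq 1.0.0 and DESeq2 1.0.19, and the build is mm10. Sources used here give neither annotation nor strand setting, and 17 of the 30 genes overlap another GENCODE M21 gene. The 5 summary rows stayed out of all sizes and tests: 8.02% to 20.1% of reads lay in genes, 58.0% to 76.1% in no feature, 0.0474% to 0.0907% were ambiguous and 15.8% to 30.7% not unique. No pair of libraries was a copy of another (lowest chi-square per degree of freedom 10.5 over 120 pairs).

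HFD was set against CD by edgeR 4.0.16 (R 4.3.3) with its robust quasi-likelihood test, with diet as sole term, TMM factors, its default filter and Benjamini-Hochberg adjustment over 13149 genes. CPM use TMM-scaled library sizes over tested genes. SE is the log2 fold change over the root of F. The step was tested on simulated data. Alternatives were DESeq2 1.42.0, limma 3.58.1 voom, other scalings and filters, Rn45s left out, a spermatid to epididymal covariate, a block on title numbers and each library left out. Added after the data were seen was leaving out HFD 4 and HFD 8. The genes, lists and rules were chosen with earlier results of these data known. Values by library are given for the 10 members with the highest mean CPM, those with an unadjusted p under 0.05, and the highest per kilobase of each role group. Hadhb was added after its values were seen. Of the further genes, the 5 most abundant and those with an unadjusted p under 0.05 are given. Lengths are unions of GENCODE M21 exons, and promoter sequences are RefSeq's for GRCm38.p6.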

Additional observations from a re-analysis of the deposited data

Results flagged for a closer look

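Within a diet, a library was picked out where its gap to the nearest other library, as a share of the range, exceeded the 95% critical value of Dixon's test for 8 libraries. This happened 8 times over 78 groups. The test's rate of about 1 group in 20 holds for independent groups of normally distributed values. Some of these groups share genes and some hold counts near 0, so the number of flags cannot be set against that rate. HFD 4 had a Hadha to Hadhb count ratio of 19.4, from 369 and 19 counts, with 3.05 to 6.72 in the other 7 HFD libraries. That ratio was chosen after its values were seen, so its place here restates the observation and is no test of it. CD 2, the library with the most gene counts, was high in 3 genes and 1 sum. It held 56.5 CPM of Acadm, against 10.7 to 32.1 CPM in the other 7 CD libraries, 66.1 CPM of Echs1, against 23.3 to 39.6 CPM, and 140.5 CPM of Etfa, against 38.5 to 82.5 CPM. The sum of Etfa, Etfb and Etfdh was 222 CPM in CD 2, against 99.0 to 129 CPM in the others. Cpt1c stood at 13.1 CPM in CD 6, against 1.53 to 5.54 CPM in the other 7 CD libraries. Cpt1b reached 0.697 CPM in HFD 8 and 0.338 CPM in CD 8, levels below the 3-count limit of these libraries.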

How the results depend on the processing

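No call was made with edgeR under any scaling, filter, covariate or left-out library, for all genes, for the 29 members or for the 52 other genes of the pathway. DESeq2 called 1 gene of 13149, which is no member, where edgeR called 0 and had 1482 at an unadjusted p under 0.05. The median of the members lay between -0.10 and 0.05 over all alternatives. Summed levels of the role groups moved by less than 1 SD when the gene total replaced TMM scaling. Leaving out 1 of 8 libraries cannot move a mean by 1 SD, so that comparison shows nothing about stability. The SD in HFD also rests on HFD 4 and HFD 8. The carnitine shuttle sum averaged 592 ± 504 CPM in HFD with this pair and 323 ± 76.1 CPM without it. Without HFD 4 and HFD 8, a choice made after seeing the data, edgeR had 292 genes at an unadjusted p under 0.05, 516 without HFD 4 alone and 689 without HFD 8 alone. With the spermatid to epididymal covariate and all libraries, 605 genes and 0 of the 29 members were at that level. With diet as sole term these were 1482 genes and 1 member. Fold changes that changed sign with the setting lay between -0.21 and 0.19 over all libraries, apart from Crat at 1.01, and the cause was not tested. On the log2 scale, values that crossed 0 were 0.026 for Cpt2, 0.036 for Acadm, 0.012 for Acadvl, 0.0086 for Etfb and 0.0049 for Eci2 with DESeq2. With limma-voom they were -0.28 for Slc25a20, 0.36 for Acadvl, -0.088 for Hadha, 0.0029 for Hadh, 0.27 for Etfa, 0.23 for Etfb and 0.27 for Eci2. With relative log expression factors they were 0.030 for Cpt2, 0.039 for Acadm, 0.0091 for Acadvl, 0.0047 for Etfb and 0.00084 for Eci2. Without Rn45s it was 0.0044 for Acadm. With the spermatid to epididymal covariate they were -0.21 for Slc25a20, 0.15 for Acadm, 0.079 for Acadvl, -0.012 for Hadha, 0.0027 for Etfa, 0.092 for Etfb and 0.030 for Eci2. With the replicate block they were -0.017 for Cpt1a, 0.060 for Acadm, -0.076 for Echs1 and -0.0077 for Ehhadh. Without HFD 4 and HFD 8 they were -0.47 for Slc25a20, 0.21 for Acadvl, -0.14 for Hadha, 0.070 for Hadh, 0.12 for Etfa, 0.24 for Etfb, 0.24 for Eci2, 0.020 for Acox3 and -0.11 for Crat. Leaving out single libraries turned the sign of 14 of the 29 members, whose ranges were -0.099 to 0.26 for Cpt1a, -0.20 to 0.10 for Cpt2, -0.17 to 0.40 for Slc25a20, -0.12 to 0.27 for Acadm, -0.26 to 0.041 for Acadl, -0.15 to 0.11 for Acadvl, -0.083 to 0.23 for Echs1, -0.27 to 0.096 for Etfa, -0.075 to 0.14 for Etfb, -0.061 to 0.24 for Etfdh, -0.022 to 0.39 for Eci1, -0.080 to 0.12 for Eci2, -0.17 to 0.18 for Ehhadh and -0.34 to 0.011 for Ppara. Of the 29 members, 11 kept 1 sign in all 28 alternatives, 3 positive (Cpt1c, Acad9 and Hadhb) and 8 negative (Acads, Acadsb, Acad10, Acaa2, Decr1, Ppard, Ppargc1a and Mlycd). 

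Correlation did not settle whether title numbers pair the libraries. Same-numbered libraries correlated at -0.40 to 0.61 in their deviations from the diet mean, over 0.1 in 4 of 8 pairs. Of the 8 HFD libraries, 2 correlated best with their own number. With the replicate block, edgeR called 0 genes, with 314 at an unadjusted p under 0.05, and the member median was -0.08. Levels per kilobase of 12 members moved by more than 1 SD with the longest transcript as length. Depth limits low members: in HFD 4, the shallowest library, a count of 0 allows up to 1.79 CPM.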

Other observations

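Slc22a5 and Slc22a21, both carnitine transporters, took different places in HFD 4 and HFD 8. Slc22a5, the high-affinity carnitine transporter OCTN2, held 13.1 and 10.1 CPM in the pair, against 34.3 to 90.2 CPM in the other 14 libraries. Slc22a21, a related carnitine transporter of mouse testis, held 67.8 and 70.8 CPM in the pair, against 11.1 to 31.4 CPM elsewhere. Slc22a4, from the same list, held 1.19 CPM in HFD 4 and 5.58 CPM in HFD 8, against 1.98 to 19.3 CPM elsewhere. Of all tested genes, 21.8% lay above the other 14 libraries in both HFD 4 and HFD 8, and 22.6% below them. Bbox1, which catalyses the last step of carnitine synthesis, had 7 counts in HFD 1 and 0 to 2 in each other library, and Tmlhe, which catalyses the first, had 0 in all 16. The symbol Tmlhe could not be matched to a single GENCODE M21 gene, and the part of annotation in its 0 counts was not tested. Between diets, edgeR's quasi-likelihood test gave log2 fold changes of HFD over CD of -0.12 ± 0.34 for Slc22a5 (SE, adjusted p = 0.915) and 0.46 ± 0.35 for Slc22a21 (adjusted p = 0.656), and neither passed. Without HFD 4 and HFD 8 the values were 0.21 ± 0.20 for Slc22a5 and -0.19 ± 0.24 for Slc22a21. These transporters were singled out after their values were seen.

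Acyl-CoA synthetases also differed in their places. Acsl1 and Acsl6 lay above the other 14 libraries in HFD 4 and HFD 8, and Acsl3 and Acsl4 below them. Acsl5, from the same list, lay below the other 14 in HFD 4 only. In HFD 8 it held 47.4 CPM, inside their range of 41.3 to 84.1 CPM. Of all tested genes, 21.8% lay above the other 14 libraries in both HFD 4 and HFD 8, and 22.6% below them. These synthetases were singled out after their values were seen, and no test was made against those shares. Acsl6 held 74.4 and 71.8 CPM in the pair, against 1.83 to 20.2 CPM in the other 14, and Acsl3 held 4.17 and 12.9 CPM, against 15.6 to 52.9 CPM. Tfam held 616 CPM in HFD 8 and 78.6 CPM in HFD 4, against 21.7 to 70.2 CPM in the other 14 libraries.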
